A study of Homo sapiens with 8 samples.

Results

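Dense clusters of H3K4me2 peaks were described in RD cells, an established human line of embryonal rhabdomyosarcoma, and their marked length was set side by side after knockdown of LSD1 and after a control siRNA. The clusters were found in the pooled peak list of the control cells. Peaks on chromosomes 1 to 22 and X that were under 8000 bp wide were stitched together when the gap between neighbours was at most 12500 bp, and a stitched region was kept when it held at least 5 peaks that covered at least 15000 bp. This gave 391 clusters among 28450 stitched regions (1.37%), with 2784 of the 44760 narrow peaks of the list (6.22%). The siLSD1 group was 2 H3K4me2 ChIP-seq libraries of RD cells transfected with a single siRNA construct against LSD1. The siCtrl group was 2 libraries of RD cells transfected with a control siRNA. Cells of both groups had a change of medium after 8 hours and were harvested 96 hours after transfection. The submitters call the replicates biological. LSD1 itself was not measured in these libraries.

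H3K4me2, the dimethylation of lysine 4 of histone H3, marks promoters and enhancers. LSD1, which KDM1A encodes, is a demethylase that takes this mark and the monomethyl mark off the same lysine, and it acts within CoREST and other repressor complexes. Runs of marked elements that lie close together are known from gene-dense stretches, where promoters follow each other closely, and from genes with many enhancers. The HOX homeobox genes, which pattern the body axis, are one such stretch.

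The clusters were chosen by peak number, peak width, gap and covered length in the pooled siCtrl list, which the labels give as the pool of the siCtrl libraries. Any lower value in the siLSD1 libraries than in that list, and any mark found in the gaps of that list, is therefore in part fixed by the choice, and the values below are a description unless another choice of clusters is named. Lists also differed in length. The full lists held 50587 and 49611 peaks in siLSD1 replicates 1 and 2, against 33878 and 44831 in siCtrl replicates 1 and 2. The list of siCtrl replicate 1 was the shortest, and this library had the lowest covered length of the 4 in 303 of the 391 clusters (77.5%). Read depth is unknown, so the part of depth in these differences was not tested.

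The clusters were of moderate size. They held 5 to 18 pooled siCtrl peaks with a median of 7, covered 15.0 to 71.0 kb with a median of 19.5 kb, and spanned 22.1 to 135.8 kb with a median of 48.1 kb. Together they spanned 19.6 Mb, or 0.647% of chromosomes 1 to 22 and X, of which 8.33 Mb lay under peaks. Their density lies in the number of neighbouring peaks and not in the share of sequence that was marked. Peaks covered a median of 43.4% of a cluster, against 46.6% of stitched regions with 2 to 4 peaks. The median gap between neighbouring peaks was 4.15 kb. Peaks inside the clusters were wider than those outside, with medians of 2649 and 1857 bp in the pooled siCtrl list.

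The limits of the rule cut through a continuous range. The smallest clusters covered 15017 bp in 12q24.31, 15035 bp in 16q24.3 and 15105 bp in 7p22.1. Regions with enough peaks that fell just short covered 14984 bp in 7q22.1, 14983 bp in 4p15.33 and 14961 bp in 12q24.33. The first of the smallest clusters, in 12q24.31, had 13.5 and 14.0 kb in the siLSD1 libraries, against 8.60 and 9.60 kb in the siCtrl libraries. The region just outside in 7q22.1 had 15.6 and 14.4 kb in the siLSD1 libraries, against 13.8 and 12.9 kb in the siCtrl libraries. By peak number, 79 clusters had exactly 5 peaks, while 75 stitched regions covered 15 kb or more with 4 peaks or fewer, the longest of them with 22.9 kb in 1q32.1.

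The clusters were concentrated on a few chromosomes. Chromosome 19, the most gene-dense human chromosome, held 45 clusters, or 11.5% of all clusters against 3.62% of all stitched regions. This is 76.1 clusters per 100 Mb. Chromosome 1 also held 45 clusters, but only 18.1 per 100 Mb, and chromosome 17 held 33, or 40.6 per 100 Mb. Chromosomes 18 and 13 held 1 and 2 clusters, and chromosome X held 3. The bands with most clusters were 19p13.3 with 14, 16p13.3 with 10, and 1q32.1 and 17q25.3 with 8 each. In all, 231 bands held a cluster and 73 of these held more than 1. Light-staining bands, which are rich in genes, held 264 clusters (67.5%, exact 95% interval 62.6 to 72.1%), against 54.5% of single stitched peaks (53.8 to 55.2%). The interval covers counting error only.

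The longest clusters gave the clearest picture of single loci. Genes named with a band below are textbook residents of that band, named after the values were seen, and whether a cluster lies at them was not determined, since no hg19 gene annotation was used here. The cluster with most covered sequence and most peaks lay in 1p34.3, at chromosome 1 from 39546098 to 39681927, with 18 peaks in the pooled siCtrl list. This band carries MACF1, which links actin filaments to microtubules, among many other genes. It had 63.4 and 61.5 kb under peaks in siLSD1 replicates 1 and 2, against 46.1 and 54.2 kb in siCtrl replicates 1 and 2. Both siLSD1 libraries lay above both siCtrl libraries. The difference of the means was 12.3 kb, and it was 8.25 kb without siCtrl replicate 1. With equal numbers of top-scoring peaks from each list it was 2.67 kb, and without library peaks of 8000 bp or wider it was 3.58 kb.

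In 17q21.32, the band of the HOXB homeobox genes, a cluster of chromosome 17 from 46630449 to 46705449 had 50.2 and 55.3 kb in the siLSD1 libraries, against 45.3 and 50.3 kb in the siCtrl libraries. Here siLSD1 replicate 1 lay just below siCtrl replicate 2, so the groups overlapped. Without library peaks of 8000 bp or wider the difference turned to -3.85 kb. A cluster in 2q31.1, the band of the HOXD homeobox genes, lay lower in both siLSD1 libraries. It ran on chromosome 2 from 176939469 to 177005304, and had 43.5 and 42.3 kb in the siLSD1 libraries, against 44.6 and 47.0 kb in the siCtrl libraries. This cluster was picked out after its values were seen.

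The other clusters with most covered sequence or most peaks differed by at most 5.58 kb. In 19q13.32, chromosome 19 from 45907671 to 46013688 had 43.0 and 46.1 kb in the siLSD1 libraries, against 40.7 and 43.9 kb in the siCtrl libraries. In 1p36.33, chromosome 1 from 855582 to 976650 had 39.3 and 38.6 kb in the siLSD1 libraries, against 37.0 and 41.4 kb in the siCtrl libraries. In 16p13.3, chromosome 16 from 2008578 to 2099723 had 34.9 and 37.4 kb in the siLSD1 libraries, against 34.9 and 36.5 kb in the siCtrl libraries. The groups overlapped in each of these 3 clusters. In Xq23, the band of the DXZ4 macrosatellite, a tandem repeat in whose copies short reads can be hard to place, chromosome X from 114952836 to 115005729 had 41.4 and 41.4 kb in the siLSD1 libraries, against 40.7 and 39.99 kb in the siCtrl libraries. Peak number ran the other way there, with 15 and 15 in the siLSD1 libraries, against 17 and 17 in the siCtrl libraries.

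A second cluster in 16p13.3, chromosome 16 from 3138771 to 3245820, had 41.3 and 43.8 kb in the siLSD1 libraries, against 35.05 and 42.4 kb in the siCtrl libraries. In 19p13.2, chromosome 19 from 12830553 to 12918886 had 39.4 and 42.0 kb in the siLSD1 libraries, against 37.3 and 41.7 kb in the siCtrl libraries. In 11p15.5, chromosome 11 from 774982 to 851102 had 38.3 and 39.6 kb in the siLSD1 libraries, against 34.6 and 38.6 kb in the siCtrl libraries. The groups overlapped in these 3 clusters as well. In 6q24.2, chromosome 6 from 143162861 to 143229954 had 25.7 and 29.0 kb in the siLSD1 libraries, against 18.1 and 32.0 kb in the siCtrl libraries, the widest gap between siCtrl replicates among the named clusters. Its difference was 2.29 kb, and -4.67 kb without siCtrl replicate 1. In 2q11.2, chromosome 2 from 102348958 to 102438226 had 27.7 and 25.7 kb in the siLSD1 libraries, against 17.8 and 24.4 kb in the siCtrl libraries, with no overlap. Its difference was 5.58 kb, and 2.27 kb without siCtrl replicate 1.

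The largest rise was in 2q37.2, at chromosome 2 from 235858063 to 235921990. It had 38.2 and 39.3 kb in the siLSD1 libraries, against 20.6 and 26.7 kb in the siCtrl libraries, a difference of 15.1 kb. With equal numbers of peaks this was 10.8 kb, but without library peaks of 8000 bp or wider it was -0.612 kb. In this cluster 9.67 and 9.82 kb of the siLSD1 peaks lay in the gaps of the pooled siCtrl list, where neither siCtrl library had a peak. The cluster in 15q22.33 came next, at chromosome 15 from 67356364 to 67443950. This band carries SMAD3, a transducer of TGF-beta signals. It had 41.6 and 44.5 kb in the siLSD1 libraries, against 25.3 and 31.1 kb in the siCtrl libraries. The difference was 14.9 kb, and 8.53 kb with equal numbers of peaks. The groups did not overlap in either cluster.

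In 10q23.33, the band of MYOF, a membrane repair and fusion protein of muscle, chromosome 10 from 95194429 to 95258757 had 29.2 and 32.0 kb in the siLSD1 libraries, against 15.97 and 23.3 kb in the siCtrl libraries. In 2p22.3, chromosome 2 from 36581261 to 36617346 had 21.8 and 24.6 kb in the siLSD1 libraries, against 10.5 and 15.6 kb in the siCtrl libraries. In 11q21, the band of the Notch coactivator MAML2, chromosome 11 from 95929232 to 95998722 had 20.3 and 27.4 kb in the siLSD1 libraries, against 10.2 and 17.3 kb in the siCtrl libraries. All 3 clusters had a siLSD1 mean over 1.5 times the siCtrl mean, which 24 of the 391 clusters had. The same share over all stitched regions is not given here, so this count is a description only. The remaining large rises were a cluster of chromosome 10 from 82212669 to 82270007 in 10q23.1, with a difference of 9.83 kb, and a cluster of chromosome 2 from 65576233 to 65625492 in 2p14, with a difference of 9.61 kb. With equal numbers of peaks the rise was 4.80 kb in 10q23.1, 5.90 kb in 2p14 and 6.33 kb in 10q23.33. Without library peaks of 8000 bp or wider it was 5.17 kb in 10q23.1 and 3.26 kb in 2p14. The rise in 11q21 was 10.1 kb, and 6.54 kb without siCtrl replicate 1 or without siLSD1 replicate 2. The rise in 10q23.33 was 10.9 kb, and 7.25 kb without siCtrl replicate 1.

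**Figure D1:**
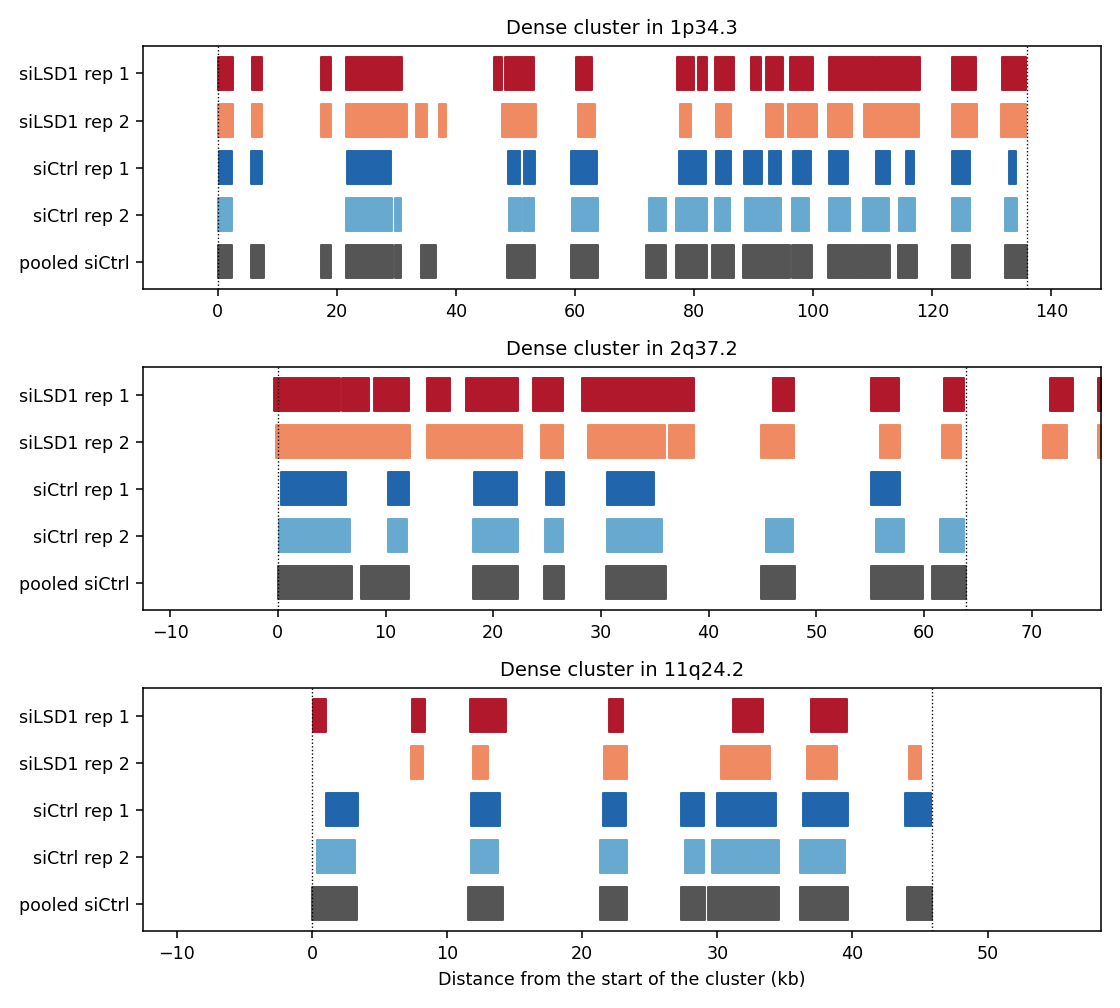
Peaks in the 4 library lists and in the pooled siCtrl list over 3 clusters, by distance from the cluster's start in kb; dotted lines mark the cluster's ends and each bar is a deposited peak, including peaks of 8000 bp or wider in the libraries. In 2q37.2 both siLSD1 libraries have peaks that fill gaps seen in both siCtrl libraries, while in 11q24.2 the siLSD1 peaks cover 10.4 and 10.3 kb, against 17.4 and 16.4 kb for the siCtrl peaks.

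With all peaks, the falls were smaller than the rises. The largest was in 11q24.2, at chromosome 11 from 125971992 to 126017899, with 10.4 and 10.3 kb in the siLSD1 libraries, against 17.4 and 16.4 kb in the siCtrl libraries. Replicates of each siRNA lay close together here. In 2q34, the band of MYL1, a myosin light chain of fast skeletal muscle, chromosome 2 from 211151425 to 211190451 had 11.4 and 6.34 kb in the siLSD1 libraries, against 12.45 and 15.99 kb in the siCtrl libraries. In 16q22.1, chromosome 16 from 70715355 to 70750676 had 9.94 and 8.93 kb in the siLSD1 libraries, against 14.4 and 14.6 kb in the siCtrl libraries.

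In 1q32.1, the band of the muscle regulator MYOG, chromosome 1 from 202975035 to 203022470 had 8.09 and 10.7 kb in the siLSD1 libraries, against 14.3 and 13.5 kb in the siCtrl libraries. This band held 8 clusters, which did not share a direction. Those starting at 201387993, 201499434, 201679829 and 205252732 were higher in both siLSD1 libraries. That starting at 203236137 was lower in both, and in the rest the groups overlapped. In 11p15.5, the band of the imprinted genes IGF2 and H19, chromosome 11 from 1967215 to 2005273 had 14.2 and 11.7 kb in the siLSD1 libraries, against 17.2 and 17.6 kb in the siCtrl libraries. In 1p12, the cluster at chromosome 1 from 118643276 to 118680312 fell by 4.98 kb, and in 2p24.2 the cluster at chromosome 2 from 17971793 to 18004750 fell by 3.72 kb. Choosing clusters by high siCtrl values favours such falls. With the upper 50% of each list by score, all 7 of these falls kept their direction but were smaller by over 1.5 times, between -3.63 kb in 11q24.2 and -0.90 kb in 16q22.1. That setting keeps fewer peaks of each library and leaves the siLSD1 lists longer than the siCtrl lists. With equal numbers of top-scoring peaks most of the falls were larger than with all peaks. The falls were then -9.34 kb in 11q24.2, -7.68 kb in 2q34, -6.03 kb in 16q22.1, -4.83 kb in 1q32.1 and -4.34 kb in 2p24.2. Those in 1p12 and 11p15.5 were smaller, at -4.78 and -3.33 kb. The fall in 2q34 was -2.82 kb without siLSD1 replicate 2.

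**Figure D2:**
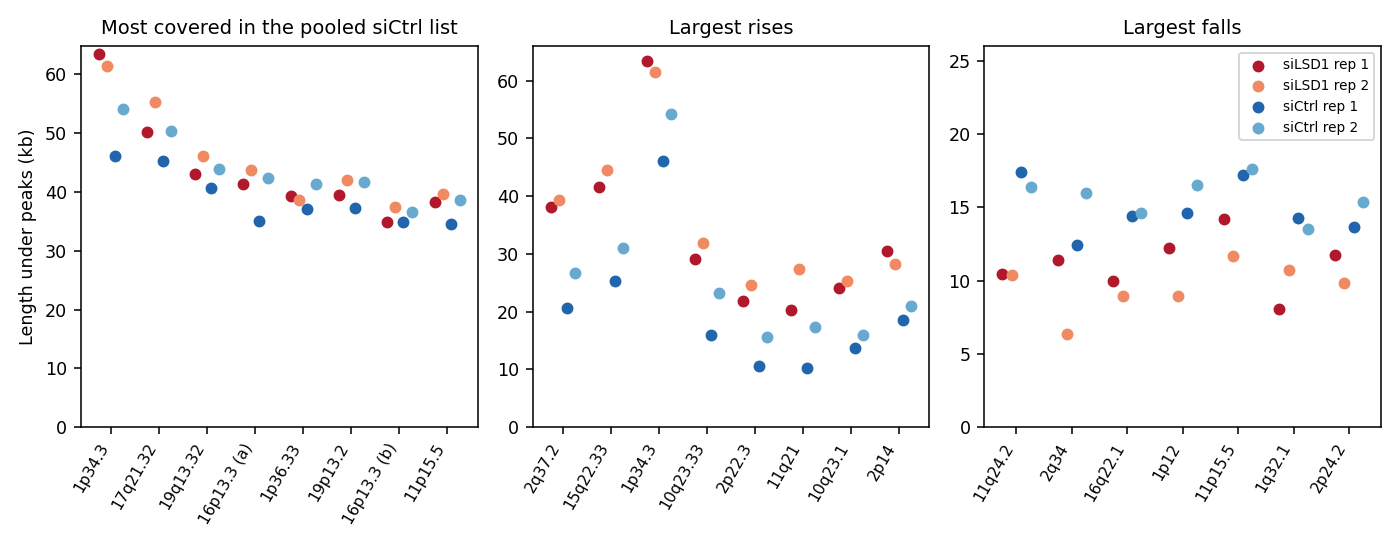
Length under peaks in kb for the 8 clusters with most covered sequence in the pooled siCtrl list, the 8 largest rises and 7 of the largest falls, 1 point per library and named by band (2 clusters lie in 16p13.3). Rises and falls were chosen as clusters without overlap between the siRNAs, and in the 2q37.2 cluster the siLSD1 libraries have 38.2 and 39.3 kb against 20.6 and 26.7 kb in the siCtrl libraries.

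Over all clusters, more sequence lay under peaks in both siLSD1 libraries. The clusters held 7.30 and 7.63 Mb of covered sequence in siLSD1 replicates 1 and 2, against 5.96 and 7.19 Mb in siCtrl replicates 1 and 2. The means were 7.47 ± 0.236 Mb (SD, n = 2) after siLSD1 and 6.57 ± 0.867 Mb (SD, n = 2) after siCtrl, a ratio of 1.14. Without siCtrl replicate 1 the ratio was 1.04. With all libraries, the ratio was 1.23 for the rest of the lists, which includes peaks outside the stitched regions. Over all stitched regions of the pooled siCtrl list it was 1.09. It was 1.04 for single peaks, 1.11 for regions of 2 to 4 peaks and 1.20 for those of 5 or more peaks under 15 kb. Peaks in the clusters numbered 2925 and 2797 in the siLSD1 libraries, against 2395 and 2753 in the siCtrl libraries. With 2 libraries in each group, no exact two-sided permutation test can reach 0.05, so none is given for these values.

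Both siLSD1 libraries lay above both siCtrl libraries in covered length in 165 of the 391 clusters (42.2%), and lower in 28 (7.16%). Among all stitched regions, the same held for 21.8% and 8.47%. The share of regions that were higher also grew with peak number outside the clusters. It was 18.7% for single peaks, 27.2% for regions of 2 to 4 peaks and 33.6% for regions of 5 or more peaks under 15 kb. Without siCtrl replicate 1, 171 clusters were higher (43.7%) and 113 lower (28.9%), against 24.7% and 41.5% of all stitched regions. Fewer libraries make this order easier to meet. Taking lists of equal length, with the 33878 top-scoring peaks of each library, 114 clusters were higher (29.2%) and 51 lower (13.0%), beside 16.5% and 11.0% of all stitched regions.

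Peak number followed the same order with fewer clear cases. It was higher in both siLSD1 libraries in 74 clusters (18.9%) and lower in 8 (2.05%), against 5.02% and 1.92% of all stitched regions. With lists of equal length the balance turned, to 21 clusters higher (5.37%) and 45 lower (11.5%), beside 3.19% and 4.71% of all stitched regions. Of the 165 clusters with more covered sequence, 134 also had a higher mean number of peaks and 31 did not.

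**Figure D3:**
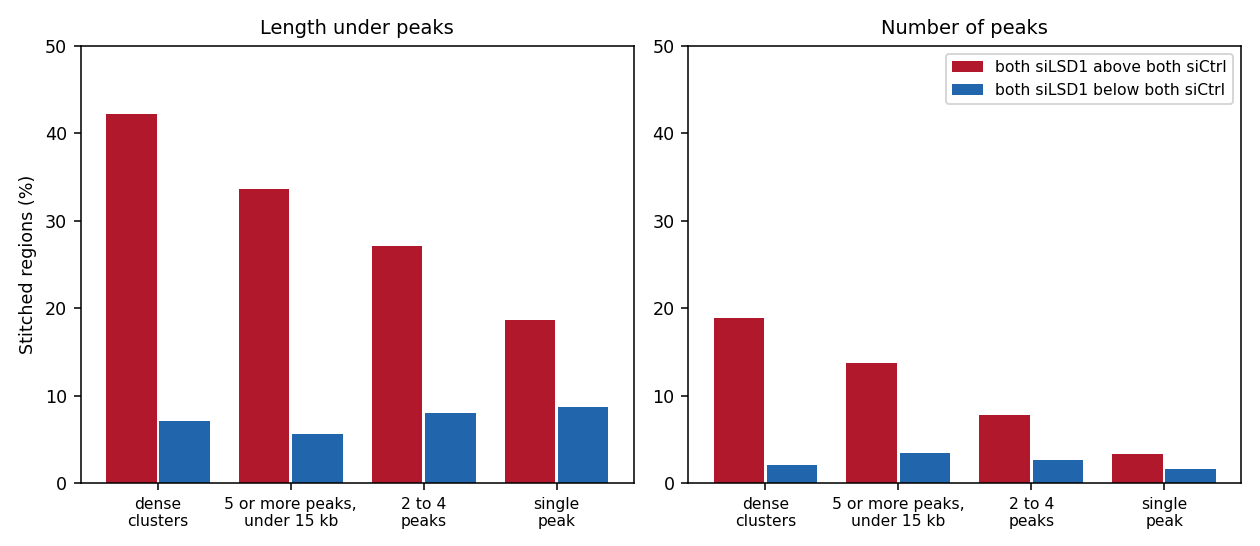
Share of stitched regions, in percent, whose siLSD1 libraries both lay above (red) or both below (blue) the siCtrl libraries, for length under peaks and number of peaks, by class of region. For length, the share above is 42.2% in dense clusters and 18.7% in single peaks.

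**Figure D4:**
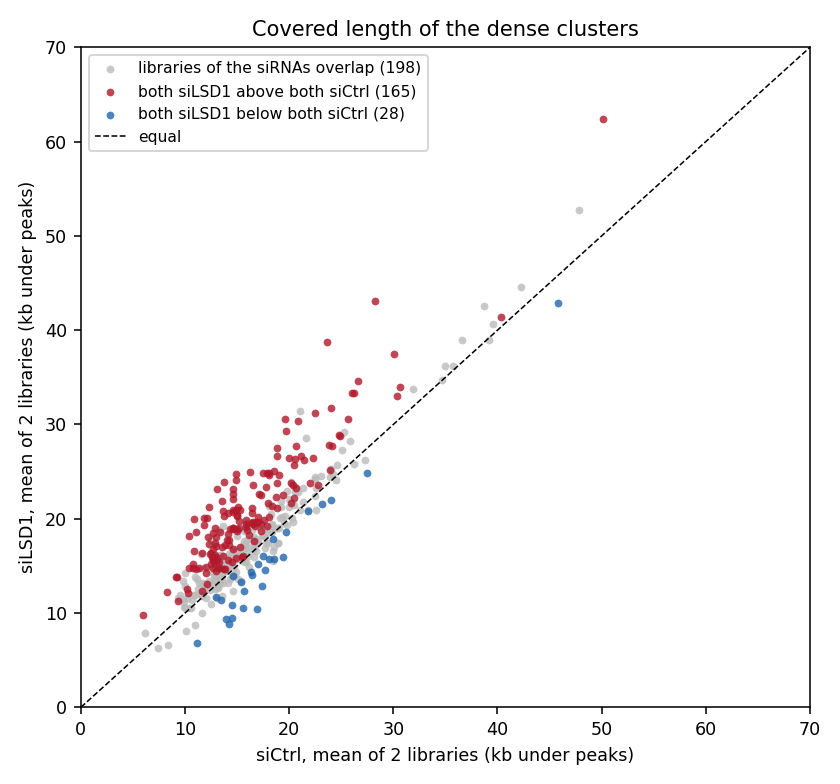
Mean length under peaks of each of the 391 clusters in kb, siLSD1 against siCtrl, coloured by whether the libraries of the siRNAs overlap; the dashed line marks equal values. Of the clusters, 165 lie clear above and 28 clear below, and the difference of the means ranges from -6.53 to 15.1 kb.

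The median cluster gained 1.81 kb, against 0.097 kb for the median stitched region, which is much shorter. The mean was higher after siLSD1 in 313 clusters and lower in 78. The same shares over all stitched regions are not given here. On a log2 scale 315 of the 391 clusters were higher, but 246 with equal numbers of top-scoring peaks and 170 after quantile normalization. The counts of clusters without overlap of the groups varied with density, a value that the rule used in part, and with span. In the 98 clusters with 22.2 to 36.1% of their span under pooled siCtrl peaks, 49 were higher in both siLSD1 libraries and 5 were lower. In the 98 with 50.5 to 82.8% under peaks, 36 were higher and 12 lower. In the 98 longest clusters, with spans of 59.0 kb or more, 50 were higher and 5 lower. By chromosome, 22 of the 45 clusters on chromosome 19 were higher and 2 lower, and 19 of the 45 on chromosome 1 were higher and 4 lower. On chromosome 6, 5 of 24 were higher and 1 lower, and on chromosome 12, 7 of 25 were higher and 4 lower. On chromosome 15, 7 of 10 were higher and 0 lower, and on chromosome 20, 8 of 11 were higher and 0 lower. Shares over all stitched regions of the same chromosome, density or span are not given here. These counts are thus a description and not a result about the clusters.

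The difference of the means was 0.582 Mb in the gaps of the pooled siCtrl list and 0.313 Mb within its peaks. This split is in part fixed by the choice of clusters. Within the pooled siCtrl peaks of the clusters, 6.70 and 6.93 Mb were covered in the siLSD1 libraries, against 5.91 and 7.09 Mb in the siCtrl libraries, so that siCtrl replicate 2 was above both siLSD1 libraries. In the 11.3 Mb of gaps, 0.602 and 0.707 Mb were covered in the siLSD1 libraries, against 0.0535 and 0.0916 Mb in the siCtrl libraries. Low siCtrl values in the gaps are given by the rule, since the gaps are where the pooled siCtrl list has no narrow peak. In 3 clusters, in 2q31.1, 19p13.3 and Xq23, a pooled siCtrl peak of 8000 bp or wider lay in a gap. Without these 3 the gaps held 569 and 675 kb in the siLSD1 libraries, against 21.8 and 59.7 kb in the siCtrl libraries.

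The peaks behind this mark were then split by whether they touched a pooled siCtrl peak. Outside those 3 clusters, siLSD1 peaks that touched a pooled siCtrl peak gave 355 and 437 kb of the gap coverage. Peaks that touched no pooled siCtrl peak gave 214 and 238 kb, and there were 165 and 170 such peaks. In the siCtrl libraries, touching peaks gave 16.5 and 26.3 kb, and the 5 and 32 others gave 5.34 and 33.4 kb. Of the 2393 gaps between neighbouring peaks, 62 and 80 were covered from end to end in the siLSD1 libraries, against 4 and 8 in the siCtrl libraries. Both siLSD1 libraries and neither siCtrl library did so in 29 gaps, in 27 clusters, and the reverse held for 0 gaps. The rule places gaps where the pooled siCtrl list has no narrow peak. Low siCtrl values here, the 0 included, are thus largely set by the choice. Gaps that closed were short, with median widths of 207.5 and 135 bp in the siLSD1 libraries, against a median of 4147 bp for all gaps.

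Gaps were next read in libraries that had no part in their choice, by building clusters from 1 library list by the same rule. Among clusters built from siCtrl replicate 1, of which there were 181, 11.4% and 13.4% of the gap sequence was covered in the siLSD1 libraries, against 8.20% in siCtrl replicate 2. For the 303 clusters built from siCtrl replicate 2, it was 8.20% and 9.48% in the siLSD1 libraries, against 2.54% in siCtrl replicate 1. In the 427 clusters of siLSD1 replicate 1, 7.85% was covered in siLSD1 replicate 2, against 3.45% and 5.62% in the siCtrl libraries. In the 450 clusters of siLSD1 replicate 2, 5.64% was covered in siLSD1 replicate 1, against 2.95% and 4.39% in the siCtrl libraries. In each of the 4 choices every siLSD1 library left out of the choice had more mark in the gaps than every siCtrl library left out of it. With lists of equal length the order was kept, with 8.94% and 11.0% in the siLSD1 libraries against 7.11% in siCtrl replicate 2, and 6.51% and 7.98% against 2.999% in siCtrl replicate 1. In clusters built from the siLSD1 lists of equal length it was 7.23% in siLSD1 replicate 2 against 4.27% and 5.55%, and 4.70% in siLSD1 replicate 1 against 3.61% and 4.25% in the siCtrl libraries. These are 4 libraries, and the choices share them, so no test was made.

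**Figure D5:**
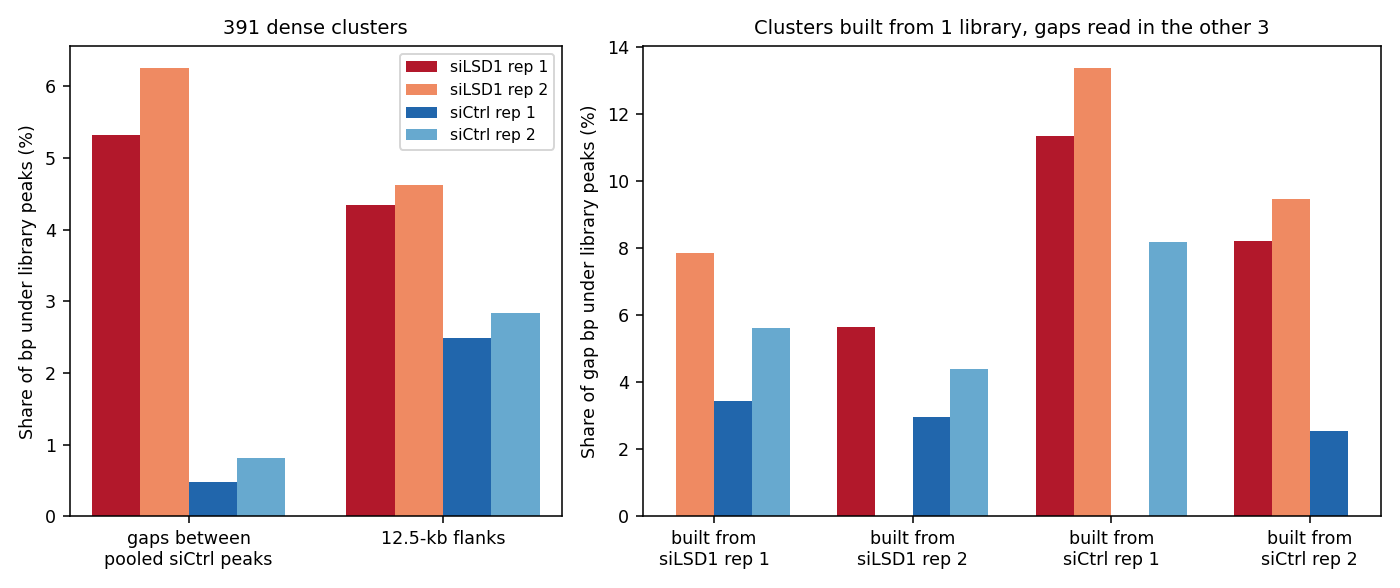
Share of sequence under library peaks, in percent: on the left in the gaps and in the flanks of 12500 bp on each side of the 391 clusters, on the right in the gaps of clusters built from 1 library, read in the 3 other libraries. On the right each siLSD1 bar is above the siCtrl bars of its set, for example 11.4% and 13.4% against 8.20% in clusters built from siCtrl replicate 1.

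Flanks showed the same order. In the 12500 bp on each side of the clusters, 0.425 and 0.452 Mb were covered in the siLSD1 libraries, or 4.35% and 4.62% of the flanks, against 0.243 and 0.278 Mb in the siCtrl libraries, or 2.49% and 2.84%. Here too the rule leaves out narrow pooled siCtrl peaks. Wide pooled peaks lay in the span or the flanks of 34 clusters.

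Elements within the clusters were found again more often than other peaks. Of the 2784 pooled siCtrl peaks in clusters, 88.8% (exact 95% interval 87.6 to 89.9%) and 90.2% (89.1 to 91.3%) overlapped a peak of siLSD1 replicates 1 and 2, against 77.5% and 92.4% for siCtrl replicates 1 and 2. For single stitched peaks these shares were 80.2% (79.6 to 80.7%) and 81.7% (81.1 to 82.2%). Cluster peaks were wider, and among peaks of 2 to 4 kb the order was the reverse. There, 95.6% and 95.5% of cluster peaks were found again in the siLSD1 libraries, against 97.1% and 96.7% of single peaks. All 4 libraries had a peak at 2007 of the cluster peaks (72.1%), and 29 were called in both siCtrl libraries and in neither siLSD1 library. Every peak was found in all 4 libraries in 81 clusters. The peaks come from the pooled siCtrl list, so these counts are in part set by the choice. The same shares over all narrow peaks of that list, and the reverse of the 29, are not given here.

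Peaks in the clusters ranked above other peaks in each list by the authors' score. Their mean score percentile was 61.0 and 61.5 in the siLSD1 libraries, against 57.9 and 59.2 in the siCtrl libraries. For peaks outside the clusters it lay between 49.3 and 49.4 in all 4 lists. Median peak width in the clusters was 2129 and 2356 bp in the siLSD1 libraries, against 2209 and 2270 bp in the siCtrl libraries. Peaks of 8000 bp or wider in the clusters numbered 11 and 22 in the siLSD1 libraries, against 0 and 1 in the siCtrl libraries, where the choice of clusters from narrow pooled siCtrl peaks keeps the siCtrl counts low. Over the whole lists there were 208 and 316 such peaks in the siLSD1 libraries, against 124 and 249 in the siCtrl libraries, and the groups overlapped.

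As a share of each list, the clusters did not gain. They held 7.54% and 7.31% of all covered sequence in the siLSD1 libraries, against 8.50% and 7.63% in the siCtrl libraries. The difference of the means was -0.643 percentage points. It was -0.212 without siCtrl replicate 1 and -0.0881 with equal numbers of peaks. Its sign followed the list that chose the clusters. Built by the same rule from the pooled siLSD1 list, there were 765 clusters, which held 13.0% and 12.7% of covered sequence in the siLSD1 libraries, against 12.9% and 11.9% in the siCtrl libraries. Built from the merged peaks of the 4 libraries, to which the longer siLSD1 lists give more peaks, 702 clusters held 12.8% and 12.4% in the siLSD1 libraries, against 12.9% and 11.8% in the siCtrl libraries. The groups overlapped under both of these choices.

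Most clusters were found from either pooled list. Of the 391 clusters, 325 (83.1%) overlapped one of the 765 clusters built from the pooled siLSD1 list, and 326 of those 765 (42.6%) overlapped one of the 391. In that list 68 of the 391 clusters were split into more than 1 stitched region. For 215 clusters the stitched region of the siLSD1 list was longer than the cluster itself. Among the 702 clusters built from all libraries, 419 (59.7%) had more covered sequence in both siLSD1 libraries and 30 (4.27%) had less, beside 30.3% and 5.89% of all regions stitched from the merged peaks.

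No cluster passed the test across all stitched regions. In limma on the log2 scale of covered kb with 0.5 kb added, fitted to 25815 stitched regions, 0 clusters were higher and 0 lower at an adjusted p under 0.05, and the same was true of 0.0% of all regions in each direction. The smallest limma adjusted p of a cluster was 0.737, for the fall in 11q24.2, with a log2 change of -0.68 ± 0.07 (SE) and lower covered length in 2 of 2 siLSD1 libraries. The rise in 10q23.1 had a log2 change of 0.72 ± 0.10 (SE, limma adjusted p = 0.768), and the rise in 2q37.2 one of 0.71 ± 0.15 (SE, limma adjusted p = 0.857). At an unadjusted p under 0.05, limma had 51 clusters higher (13.0%) and 5 lower (1.28%), beside 3.34% and 1.78% of all regions. Quantile normalization between libraries moved these counts to 39 higher (9.97%) and 40 lower (10.2%), beside 3.32% and 3.28% of all regions. Without siCtrl replicate 2 there were 132 higher (33.8%) and 4 lower (1.02%), and 28.8% of all regions were higher and 1.04% lower. Quantile normalization also moved the median log2 change of the clusters from 0.15 to -0.03, and that of all regions from 0.07 to -0.03. Centring each library on its median left the median log2 change of the clusters at 0.07, beside -0.01 for all regions. At an unadjusted p under 0.05, limma then had 62 clusters higher (15.9%) and 16 lower (4.09%), beside 3.48% and 2.22% of all regions. The sign of the typical change in the clusters thus turned under quantile normalization but not under centring on the median.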

How the data were processed

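Per the submitters' processing notes, reads were aligned with Bowtie to hg19. The deposited peak names carry the name MACS; versions and settings of either tool are not given in the sources at hand. The deposited lists give each peak's position and a score that is the authors' own value and served here only for ranks inside each list. No read counts are given, so depth is unknown. The 4 input libraries were not analysed here. Positions are hg19, counted from 1, and cytobands came with circlize 0.4.16. The reference at hand was on another build, so no gene or sequence was assigned to a cluster.

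A library peak was counted in a cluster from 1 bp of overlap with its span, whatever its width, and covered length was clipped to the span. limma 3.58.1 in R 4.3.3, with a trend and robust variances (statmod 1.5.0) and Benjamini-Hochberg adjustment, was fitted to every stitched region where 2 or more libraries had 0.5 kb or more under peaks. Shares carry exact (Clopper-Pearson) 95% intervals. Stitching and limma were tested on simulated data. Other steps used pandas 2.3.3, numpy 2.4.6, scipy 1.17.1 and Python 3.11.15, with figures by matplotlib 3.10.9. Clusters named were the 8 most covered, the 8 with most peaks, and the 8 largest rises and falls without overlap of the groups, 26 in all, and those just inside and outside the limits; 1 of the falls is not reported here. The members and lists were chosen with earlier results of these data known. Clusters built from single library lists, and gaps in lists of equal length, were added after the data were seen.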

Additional observations from a re-analysis of the deposited data

How the results depend on the processing

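With all peaks, 165 clusters had more covered sequence in both siLSD1 libraries and 28 less, 74 had more peaks and 8 fewer. With equal numbers of peaks, 51 clusters had less covered sequence, and 21 had more peaks and 45 fewer. With the upper 50% of each list by score, 14 had less covered sequence (3.58%), beside 4.49% of all regions, and 3 had fewer peaks (0.767%), beside 0.633%. In this setting limma called 3 of 389 clusters higher (0.771%), beside 5.72% of all regions. With a stitching gap of 5000 bp, there were 65 clusters. Of these, 16 had more covered sequence (24.6%) and 6 less (9.23%), beside 21.0% and 8.99% of all regions, so the shares were close. More peaks were found in 5 (7.69%) and fewer in 4 (6.15%), beside 3.70% and 1.85% of all regions. Clusters built from the pooled siLSD1 list gave 489 with more covered sequence (63.9%), beside 32.7% of all regions stitched from that list. More peaks were found in 329 (43.0%), beside 12.9%, and the difference in share was 0.474 percentage points in place of -0.643. Clusters built from the merged peaks gave 419 (59.7%, beside 30.3%) and 281 (40.0%, beside 12.3%), and 0.221 percentage points. Built from siLSD1 replicate 1, 283 had more covered sequence and 13 less, 154 more peaks and 2 fewer, with 0.0268 points. Built from siLSD1 replicate 2, these were 279, 16, 188 and 3, with 0.130 points. Built from siCtrl replicate 1, 70 had more covered sequence and 29 less, 18 more peaks and 9 fewer. Built from siCtrl replicate 2, these were 96, 27, 41 and 8. For clusters built from 1 library, the shares over all regions are not given here, so these counts are a description only. These choices differ in their number of clusters, and the cause of the other changes was not tested.

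Leaving out each library gave 171 to 321 clusters with more covered sequence, 29 to 113 with less, 98 to 192 with more peaks and 21 to 57 with fewer, where 1 library alone was compared with 2 and the order was easier to meet by construction. The lowest number of rises, 171, and the highest number of falls, 113, came without siCtrl replicate 1. Of all stitched regions, 24.7% were then higher and 41.5% lower. Other such shares over all regions are not given here, so these ranges are a description only. The difference in share lay between -1.07 and -0.212 percentage points, and limma called 0 clusters, where the lone library was assumed to vary like the others. The replicate block, with differences taken within replicate numbers, gave 247 clusters with more covered sequence and 39 with less, and limma with this block called 0 clusters. The shares over all stitched regions under this block are not given here. The labels do not say that equal numbers share a batch; deviations of same-numbered libraries correlated at 0.262 over the clusters. Of 26 named clusters, 24 kept the sign of their difference with equal numbers of peaks. Without library peaks of 8000 bp or wider, the difference was -0.612 kb in 2q37.2 and -3.85 kb in 17q21.32, since such peaks are part of their coverage. Without siCtrl replicate 1, 23 of 26 kept their sign. The difference in share kept its sign but was -0.0881 points with equal numbers of peaks, -0.259 with the upper 50% by score and -0.133 with the gap of 5000 bp.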
